A study of Mus musculus with 20 samples.

Results

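The genes described here are the 2 enzymes that set the level of active vitamin D, Cyp27b1 and Cyp24a1, and the 2 receptors through which it acts, Vdr and Rxra. They were followed through every probe set that the array's annotation assigns to 1 of these genes alone, which gave 7 probe sets for 4 genes out of 10833 single-gene probe sets (8251 genes). Kidney RNA from C57BL/6J mice was hybridised to 20 oligonucleotide arrays, each carrying a pool from 3 mice. Normal and Hyp mice were each fed either a control or a low phosphate diet, which gave 4 groups of 5 arrays. Hyp mice carry a mutation of Phex on the X chromosome and serve as a model of X-linked hypophosphatemia, in which the kidney wastes phosphate. In each group 3 arrays came from mice fed for 5 days (2 male, 1 female) and 2 from mice fed for 3 days (1 male, 1 female). The mice's ages and the phosphate content of the diets are not given in the sources used here. Because each array is a pool, every p-value below measures the spread between pools and not between single mice.

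Cyp27b1 encodes the mitochondrial 1-alpha-hydroxylase, which in the proximal tubule converts 25-hydroxyvitamin D to the active hormone, calcitriol. Cyp24a1 encodes the 24-hydroxylase, which starts the breakdown of both forms. Calcitriol binds the vitamin D receptor Vdr, which pairs with the retinoid X receptor Rxra on DNA and switches on, among others, Cyp24a1 and the calbindin genes. Low phosphate and parathyroid hormone are known to raise Cyp27b1, whereas FGF23, a hormone made in bone and in excess in Hyp mice, is known to lower Cyp27b1 and raise Cyp24a1.

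Each probe set has a linear intensity on every array, in arbitrary units. Array-wide trimmed means lay between 500.25 and 500.31, so all arrays share 1 overall brightness. Of 10 listed markers of the proximal tubule, which makes up most of the kidney cortex, 7 were measured, and their summed intensity was 31004.6 to 43979.1 over the 20 arrays. This sum ran lower in Hyp mice, at 32409.7 to 34489.7 against 35768.6 to 40057.9 on control diet and 31004.6 to 36957.2 against 37622.8 to 43979.1 on low phosphate diet. Array 10, a Hyp low phosphate pool, stood apart in liver markers, with albumin (Alb) at 13096.7 against 90.3 to 1226 on the other 19 arrays. Arrays 05 to 08 had the lowest median rank correlations with the other arrays, 0.895 to 0.934. Their 3'/5' actin ratios were 1.74 on array 05 and 2.17 to 2.61 on arrays 06 to 08, against 1.22 to 1.98 on the arrays outside this set.

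Cyp27b1 lies at chr10:127048246-127054884 in mouse build GRCm38.p6. The 250 bases before its start, chr10:127047996-127048245 on the plus strand, are shown because this gene's log2 differences between diets had opposite signs in the 2 genotypes. Sequences are from RefSeq, and capitals mark exact matches, on either strand, to the nuclear receptor half-site AGGTCA, to CCAAT or to the GC box GGGCGG.
Cyp27b1: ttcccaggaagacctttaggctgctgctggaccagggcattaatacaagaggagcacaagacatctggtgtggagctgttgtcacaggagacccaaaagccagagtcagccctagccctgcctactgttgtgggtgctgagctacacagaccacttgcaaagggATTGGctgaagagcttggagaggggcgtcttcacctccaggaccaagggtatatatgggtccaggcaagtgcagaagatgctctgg
The window held 1 CCAAT match on the minus strand, 86 bases before the start, and 0 matches to AGGTCA. Of all 32851 promoter windows of this length, 33.8% held CCAAT and 14.0% held AGGTCA.

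Cyp27b1 was measured by 1 probe set. In normal mice on control diet its intensity was 312.0, 320.2 and 203.3 at 5 days and 274.9 and 291.8 at 3 days, a mean of 280.4 ± 46.6 (SD, n = 5). On low phosphate diet it was 658.9, 607.4 and 349.5 at 5 days and 469.5 and 407.7 at 3 days, a mean of 498.6 ± 131 (SD, n = 5). Every normal low phosphate array lay above every normal control array. For Hyp mice fed control diet the values were 209.3, 223.6 and 270.7 at 5 days and 158.7 and 553.5 at 3 days, a mean of 283 ± 156 (SD, n = 5). For Hyp mice fed low phosphate diet they were 107.0, 145.6 and 67.4 at 5 days and 64.4 and 58.9 at 3 days, a mean of 88.7 ± 37.1 (SD, n = 5). These were the 5 lowest values of all 20 arrays. In order of mean level the groups ran normal low phosphate, Hyp control, normal control and Hyp low phosphate, and all 5 normal control values lay within the range of the Hyp control values. The order of the control groups and this range rest on Hyp control array 17 at 553.5. The other Hyp control values were 158.7 to 270.7. By median the order was reversed, at 223.6 in Hyp control and 291.8 in normal control.

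**Figure D1:**
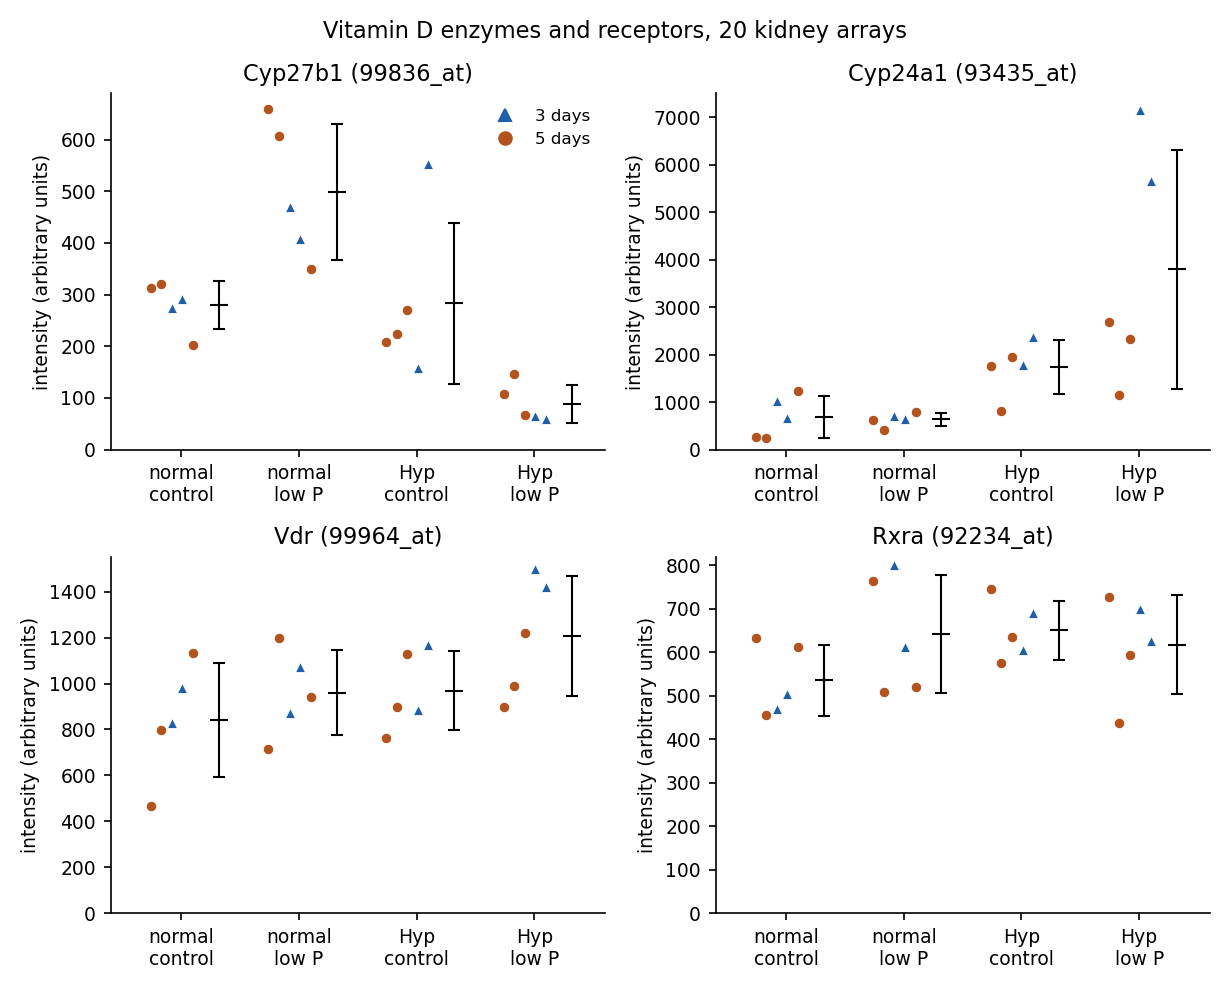
Intensity of the brightest probe set of Cyp27b1, Cyp24a1, Vdr and Rxra in the 4 groups (low P, low phosphate diet), with 1 point per array, triangles for 3 days and circles for 5 days on diet, and bars for the mean ± SD of 5 arrays. Cyp27b1 was lowest in Hyp mice on low phosphate diet (58.9 to 145.6), where Cyp24a1 reached its highest values (5668.3 and 7158.1, both at 3 days).

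The first question was how the diet acts on the activating enzyme. In normal mice Cyp27b1 was higher on low phosphate diet in 5 of 5 pairs of arrays matched for sex and days, by 1.40-fold to 2.11-fold. The groups did not overlap, as was true in this direction of 0.805% of the 8695 probe sets tested. The log2 difference of 0.73 ± 0.24 (SE; 95% interval 0.22 to 1.25) nevertheless did not pass limma's test over all probe sets (adjusted p = 0.33). Of the 6 tested probe sets of the 4 genes 0 passed in this comparison, where 0.184% of all probe sets did. Among the 6 only that of Cyp27b1 had an unadjusted p under 0.05, as did 745 of all 8695 probe sets. The adjusted p ran from 0.196 to 1.00 over 16 alternative settings.

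In Hyp mice the difference had the opposite sign. Cyp27b1 was lower on low phosphate diet in 5 of 5 matched pairs, at 0.106 to 0.651 of the control value, and the groups did not overlap (0.207% of probe sets in this direction). It fell by 1.28 on the log2 scale (SE 0.24, adjusted p = 0.044), and it was the only 1 of the 6 probe sets of these genes to pass, against 0.15% of all probe sets. The call was lost when any of the 20 arrays other than 02 or 19 was left out, with log2 differences of -1.41 to -0.99 and adjusted p up to 0.22. Without array 10, the pool with liver markers, the difference was -1.23 (adjusted p = 0.16), and without array 17, the highest control value, it was -0.99 (adjusted p = 0.083). Over 16 other settings the sign held and the adjusted p ran from 0.023 to 0.89.

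The difference between these diet effects was tested as the genotype by diet interaction. For Cyp27b1 it was -2.01 ± 0.34 (SE; 95% interval -2.74 to -1.28; adjusted p = 0.043), 1 of only 4 probe sets (0.046%) that passed. The call was kept when any of arrays 07, 08, 13, 16, 17 or 20 was left out and lost without any of the other 14, with values of -2.15 to -1.72 and adjusted p of 0.014 to 0.15. Over 15 other settings the value was -2.42 to -1.60 and the adjusted p 0.020 to 0.99.

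On control diet Cyp27b1 did not pass between genotypes. The log2 difference of Hyp from normal mice was -0.09 (95% interval -0.60 to 0.43, adjusted p = 0.94), with 2 pairs higher and 3 lower. Without array 17 the difference was -0.38 (adjusted p = 0.65). Hyp array 09 is paired with normal array 19, and 10 with 20, from different array sets. In these pairs genotype and array set cannot be told apart. On low phosphate diet Cyp27b1 was lower in Hyp than in normal mice in 5 of 5 pairs, at 0.137 to 0.240 of the normal value, with no overlap between the groups (0.311% of probe sets in this direction). It fell by 2.10 on the log2 scale (SE 0.24, adjusted p = 0.00019), 1 of 2 probe sets of these genes that passed against 0.357% of all. No single left-out array among the 20 ended the call (adjusted p up to 0.0016), array 10 included (-2.05, adjusted p = 0.0013). It was lost among female or 3-day arrays alone, with adjusted p of 6.9e-05 to 0.90 over 16 settings. The summed proximal tubule markers were also lower in Hyp mice on both diets, with 0 of 7 markers called on low phosphate diet and 1 of 7, the glucose transporter gene Slc2a2, on control diet (-0.48). Their part in the Cyp27b1 difference was not tested, and in whole kidney RNA fewer cells of a type and less RNA per cell cannot be told apart.

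**Figure D2:**
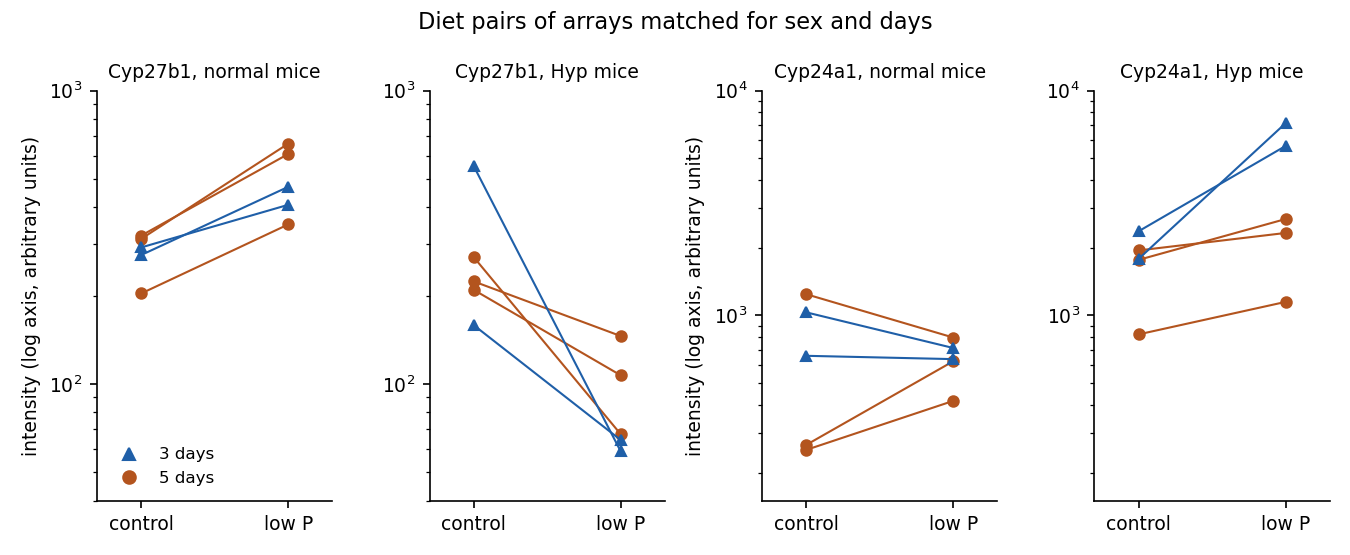
Intensity of Cyp27b1 and Cyp24a1 on a log axis, with each line joining a control array to the low phosphate (low P) array of the same genotype, sex and days (triangles 3 days, circles 5 days). Cyp27b1 lines slope up in all 5 normal pairs and down in all 5 Hyp pairs, while Cyp24a1 lines slope up in all 5 Hyp pairs and run both ways in normal mice.

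Cyp24a1, at chr2:170482957-170497145, had 2 probe sets. The brighter read 265.3, 252.2 and 1242.6 at 5 days and 1031.9 and 661.1 at 3 days in normal mice on control diet, a mean of 691 ± 446 (SD, n = 5). With low phosphate diet these mice gave 624.8, 416.5 and 797.3 at 5 days and 716.3 and 639.0 at 3 days, a mean of 639 ± 142 (SD, n = 5). The 2 normal groups overlapped, and arrays 01 and 05 were far below the other 3 control arrays. Hyp mice fed control diet gave 1765.3, 823.2 and 1944.5 at 5 days and 1783.0 and 2365.8 at 3 days, a mean of 1736 ± 565 (SD, n = 5). Hyp mice fed low phosphate diet gave 2682.0, 1148.2 and 2325.7 at 5 days and 7158.1 and 5668.3 at 3 days, a mean of 3796 ± 2511 (SD, n = 5). Both 3-day arrays of this group stood above every other array in the series. The dimmer probe set read 12.3 to 141.3 with a mean of 45.3, under the filter of 79.4 on mean intensity, and was not tested. Its group means were 34.5 to 58.0, and its highest values, 124.2 and 141.3, fell on arrays 07 and 08, which were the lowest Hyp arrays on the brighter probe set.

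The order of mean Cyp24a1 levels was Hyp low phosphate, Hyp control, normal control and normal low phosphate. On low phosphate diet Cyp24a1 was higher in Hyp than in normal mice in 5 of 5 pairs, by 2.76-fold to 9.99-fold, with no overlap (0.518% of probe sets in this direction). It rose by 2.25 on the log2 scale (SE 0.32; 95% interval 1.58 to 2.93; adjusted p = 0.0020). The call held without each array in turn (2.05 to 2.40, adjusted p up to 0.014) and was lost when sex and days were left out of the model (adjusted p = 0.083) and among male, female or 5-day arrays alone, with a range of 0.00017 to 0.41 over 16 settings. On this diet Cyp24a1 and Cyp27b1 passed in opposite directions, and without array 10 the Cyp24a1 difference was 2.37 (adjusted p = 0.0033).

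On control diet Cyp24a1 was again higher in Hyp mice in 5 of 5 pairs, by 1.56-fold to 6.65-fold, but normal array 19 at 1242.6 exceeded Hyp array 07 at 823.2. The log2 difference of 1.46 ± 0.32 (SE; 95% interval 0.79 to 2.14) did not pass (adjusted p = 0.090), and 0 of the 6 probe sets of these genes did, against 0.253% of all, with 2 of the 6 at an unadjusted p under 0.05 (Cyp24a1 and Rxra). Of all 8695 probe sets 743 had an unadjusted p under 0.05 in this comparison. Without array 19 the Cyp24a1 difference was 1.76 (adjusted p = 0.015). Blocking on the array set instead of sex and days gave 1.66 (adjusted p = 0.035), and with array weights 1.56 (adjusted p = 0.0099). Moderation with a trend also brought it past the threshold (adjusted p = 0.044), and the range over 16 settings reached 0.91.

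For diet Cyp24a1 did not pass in either genotype. In Hyp mice it was higher on low phosphate diet in 5 of 5 pairs, by 1.20-fold to 4.01-fold, with a log2 difference of 0.91 (95% interval 0.23 to 1.58; adjusted p = 0.90). In normal mice 2 pairs were higher and 3 lower, with a difference of 0.12 (95% interval -0.55 to 0.80; adjusted p = 0.97). The interaction was 0.79 (95% interval -0.17 to 1.74; adjusted p = 1.00).

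The ratio of Cyp24a1 to Cyp27b1 intensity on each array sets the RNA signal of the breakdown enzyme over that of the activating enzyme. It is not a measure of enzyme activity. It divides the signals of different probe sets, so only differences between arrays carry meaning, and not the level. In normal mice on control diet the ratio was 0.850, 0.788 and 6.11 at 5 days and 3.75 and 2.27 at 3 days. With low phosphate diet it was 0.948, 0.686 and 2.28 at 5 days and 1.53 and 1.57 at 3 days. Hyp mice fed control diet had ratios of 8.43, 3.68 and 7.18 at 5 days and 11.2 and 4.27 at 3 days. Hyp mice fed low phosphate diet had ratios of 25.1, 7.89 and 34.5 at 5 days and 111 and 96.2 at 3 days. The ratios of 34.5, 111 and 96.2 divide by dim Cyp27b1 readings of 67.4, 64.4 and 58.9. These readings lay under 79.4, the filter on mean intensity, which the probe set passed on its mean over all arrays. How far they stand above background was not analysed, so the size of these ratios is uncertain. The Hyp low phosphate values lay above all normal values, and 4 of the 5 lay above all Hyp control values.

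On the log2 scale, with the same offset of 37.7 added to both intensities, the mean ratio was 0.95 ± 1.20 in normal control, 0.34 ± 0.63 in normal low phosphate, 2.50 ± 0.61 in Hyp control and 4.69 ± 1.39 in Hyp low phosphate arrays (SD, n = 5 each). Among Hyp mice the ratio was higher on low phosphate diet by 2.19 (two-sided exact permutation test over 252 splits, p = 0.024; 0.048 adjusted over 4 comparisons), and in 5 of 5 pairs. In normal mice the difference of -0.61 did not pass (exact permutation p = 0.33), with 1 pair higher and 4 lower, and it was -0.92 to -0.25 with single arrays left out, the latter without array 19. Between genotypes on low phosphate diet the difference was 4.35, with the smallest p that 252 splits can give (exact permutation p = 0.0079; 0.032 adjusted). On control diet it was 1.55 (exact permutation p = 0.040; 0.053 adjusted), higher in Hyp mice in 5 of 5 pairs.

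The call on diet in Hyp mice was lost without array 07, 09, 14, 17 or 18 (differences of 1.82 to 2.23, adjusted p = 0.053 to 0.074). Without array 19 the genotype difference on control diet was 1.92 (adjusted p = 0.032). When arrays were exchanged only within each combination of sex and days, the calls on diet in Hyp mice and on genotype under low phosphate both had an adjusted p of 0.056 with the differences unchanged. Only 48 splits remain there, and an exact permutation p of 0.042, the smallest they allow, was reached in both. Over 8 settings the adjusted p of both ran from 0.032 to 0.11. The diet effect on the log2 ratio was larger in Hyp than in normal mice in 5 of 5 matched quartets of arrays, by 1.23, 1.18 and 3.11 at 5 days and 4.13 and 4.34 at 3 days. The mean of 2.80 gave p = 0.0625 in a two-sided exact sign-flip permutation test, the smallest that 32 sign patterns allow.

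**Figure D3:**
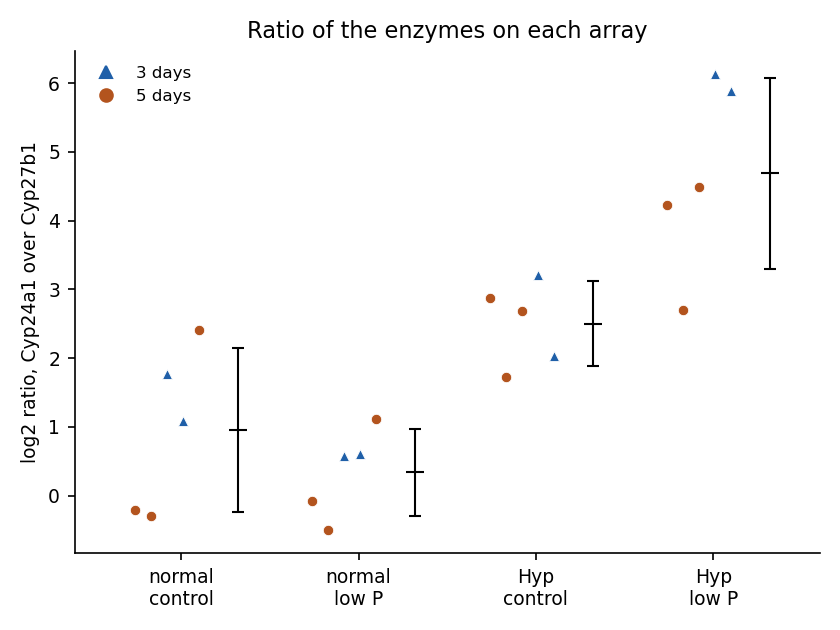
The log2 ratio of Cyp24a1 to Cyp27b1 intensity on each of 20 arrays (offset 37.7 added to both), by group (low P, low phosphate diet), with triangles for 3 days and circles for 5 days and bars for the mean ± SD of 5 arrays. The 2 highest points, 5.88 and 6.14, are the 3-day arrays of Hyp mice on low phosphate diet, and the 5-day arrays of that group lie at 2.69 to 4.49.

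Time on diet was examined next. For Cyp24a1 in Hyp mice the log2 difference between diets was 1.61 at 3 days and 0.44 at 5 days, a difference of -1.18 (95% interval -2.42 to 0.07; adjusted p = 1.00). Between genotypes on low phosphate diet Cyp24a1 differed by 3.17 at 3 days (SE 0.45, adjusted p = 0.013; 0.0575% of probe sets called) and by 1.64 at 5 days (SE 0.37, adjusted p = 0.13). The change with days of that genotype difference was -1.52 (95% interval -2.77 to -0.28; unadjusted p = 0.020, adjusted p = 1.00). No comparison of diet or genotype effects between 3 and 5 days called any of the 8695 probe sets in limma, with 195 to 337 at an unadjusted p under 0.05 in the 5 comparisons. A different response at 3 and 5 days was therefore not detectable over all probe sets with these arrays.

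The 3-day call for Cyp24a1 rests on 2 arrays a group. It was lost without array 12, 14, 16 or 18 (differences of 3.06 to 3.27, adjusted p = 0.20 to 0.31), where the lone remaining array is assumed to vary like the others. For Cyp27b1 the diet difference in Hyp mice was -1.78 at 3 days (adjusted p = 0.43) and -0.95 at 5 days (adjusted p = 0.85). The genotype difference of Cyp27b1 on low phosphate diet was -2.26 at 3 days (adjusted p = 0.059) and -1.99 at 5 days (adjusted p = 0.020; 0.104% of probe sets called). Its values without single arrays were -2.62 to -1.90 at 3 days and -2.22 to -1.77 at 5 days. The 5-day call was lost without array 02, 06, 08 or 10 (adjusted p up to 0.17), and the 3-day value passed without array 13, 17 or 20 (adjusted p down to 0.0070) or with the array set as a random block (adjusted p = 0.026). The 5-day value of Cyp24a1 passed without array 01 or 19 (adjusted p = 0.023 and 0.0085).

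Averaged over groups, Cyp24a1 was lower at 5 than at 3 days by a log2 difference of -0.98 (SE 0.24, adjusted p = 0.0040). This comparison called 40.9% of all probe sets, and all 3-day arrays belong to array sets 11 to 14 and 15 to 18, so days and array set cannot be told apart. On the normal 5-day arrays 19 and 20 Cyp24a1 read 1242.6 and 797.3, above the 3-day arrays of their groups (661.1 and 1031.9, 639.0 and 716.3). The other normal 5-day arrays, at 252.2 to 624.8, read below the 3-day arrays of their groups. A random block for the array set gave a log2 difference between days of -0.95 (adjusted p = 0.082). In Hyp mice on low phosphate diet alone the difference was -1.87 (adjusted p = 0.021; 10.7% of probe sets called), and -1.80 with the random block (adjusted p = 0.0502). Without array 08, 10, 14 or 18 it was -1.98 to -1.77 (adjusted p = 0.061 to 0.17). All 3 tested adrenal markers were higher at 5 days (median 0.65). The summed intensity of the 5 measured adrenal markers, tested or not, was 1259.3 to 2787.2 on the 5-day arrays 01 to 10. It was 905.5 and 1024.2 on the 5-day arrays 19 and 20, within the 3-day range of 873.6 to 1089.2. Also called were 1 of 3 liver and 1 of 3 adipocyte markers, both higher, and 1 of 2 collecting duct markers, lower. The part of these markers in the result was not tested. Cyp27b1, Vdr and Rxra did not pass for days (adjusted p = 0.57, 0.25 and 0.31). Between sexes 0 of the 6 probe sets passed, where 16.6% of all did. Of the 6, 3 had an unadjusted p under 0.05, as did 2764 of all 8695 probe sets. Cyp24a1 in males stood 0.59 above females (95% interval 0.09 to 1.09; adjusted p = 0.093). All 5-day female arrays are 05 to 08, the set with the lowest rank correlations, so at 5 days sex and this set cannot be told apart. Results among female arrays alone also hold this set as their only 5-day arrays.

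**Figure D4:**
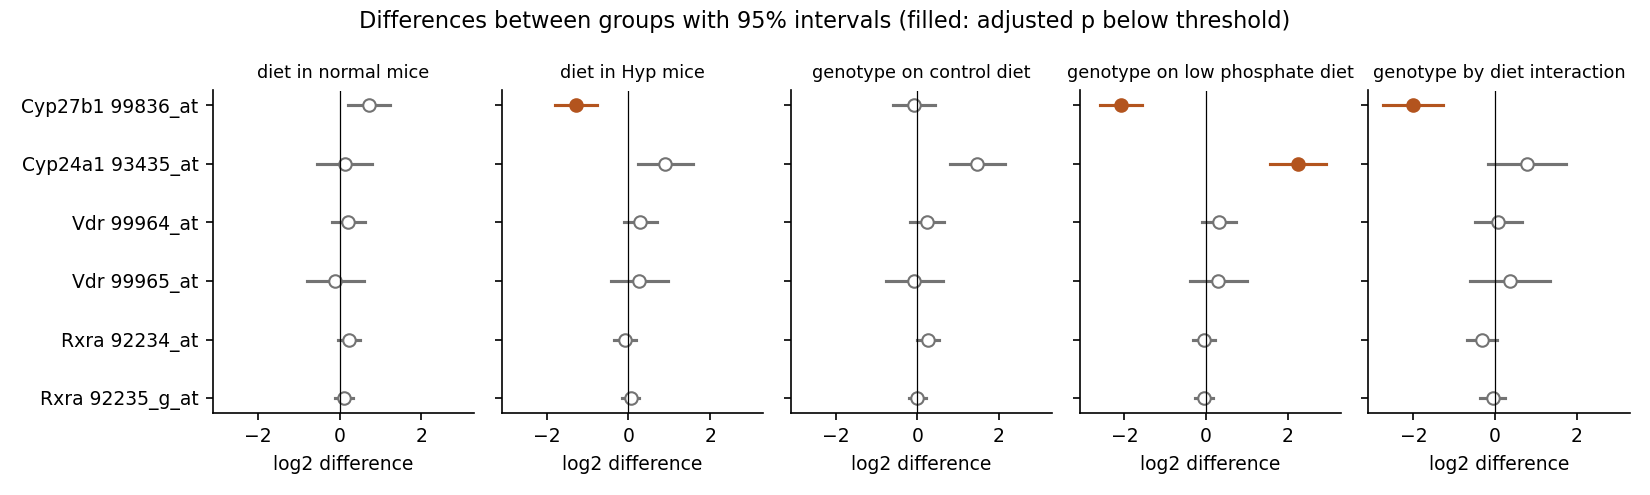
Log2 differences between groups (points) with 95% intervals (lines) for the 6 tested probe sets of Cyp27b1, Cyp24a1, Vdr and Rxra in the 5 main comparisons; filled orange points passed limma's adjusted threshold of 0.05. Only Cyp27b1 (-1.28, -2.10 and -2.01) and Cyp24a1 (2.25) have filled points, and every Vdr and Rxra interval but 1 includes 0.

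Vdr, at chr15:97854427-97908296, encodes the receptor that binds calcitriol. The 250 bases before its start, chr15:97908297-97908546 on the minus strand, are shown beside those of Cyp27b1 because Vdr, unlike that enzyme, passed the test in none of the 5 main comparisons.
Vdr: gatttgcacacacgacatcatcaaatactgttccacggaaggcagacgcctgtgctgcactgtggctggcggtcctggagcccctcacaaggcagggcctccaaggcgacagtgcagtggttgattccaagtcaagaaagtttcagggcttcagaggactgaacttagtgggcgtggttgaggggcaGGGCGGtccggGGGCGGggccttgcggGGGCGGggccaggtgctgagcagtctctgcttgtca
It held 3 GC boxes, 63, 52 and 36 bases before the start (32.7% of all windows held at least 1), and 0 matches to AGGTCA or CCAAT. The window of Rxra at its upstream start site, chr2:27676951-27677200 on the plus strand, also held 3 GC boxes, and the second, chr2:27709042-27709291, held 2 AGGTCA half-sites and 0 GC boxes. None of the 4 windows of Cyp27b1, Vdr and Rxra held AGGTCA repeated after a gap of 3 bases with up to 2 mismatches, which 2.6% of all windows did.

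The brighter Vdr probe set read 464.9, 799.8 and 1131.6 at 5 days and 829.0 and 978.8 at 3 days in normal mice fed control diet. On low phosphate diet these mice gave 714.5, 1197.7 and 942.2 at 5 days and 871.6 and 1071.0 at 3 days. Hyp mice gave 762.8, 899.2 and 1127.8 at 5 days and 886.6 and 1170.0 at 3 days with control diet. With low phosphate diet they gave 897.6, 990.4 and 1220.4 at 5 days and 1499.6 and 1421.2 at 3 days. The groups overlapped in every comparison, with means of 841 ± 248, 959 ± 185, 969 ± 173 and 1206 ± 262 (SD, n = 5 each) in that order of groups. The 2 highest Vdr values were the 3-day Hyp low phosphate arrays, the same arrays that were highest for Cyp24a1.

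Vdr did not pass in any main comparison. The log2 differences were 0.22 for diet in normal mice (95% interval -0.19 to 0.63), 0.30 for diet in Hyp mice (-0.11 to 0.71), 0.23 for genotype on control diet (-0.18 to 0.64) and 0.31 for genotype on low phosphate diet (-0.10 to 0.72). Adjusted p-values were 0.65 to 1.00. In Hyp mice Vdr was higher on low phosphate diet in 5 of 5 pairs on this probe set, by 1.08-fold to 1.69-fold. On the second it was higher in 2 pairs and lower in 3. The second probe set read 70.1 to 579.3, with log2 differences of -0.10, 0.26, -0.07 and 0.30 in the same order, so the probe sets differed in sign for diet in normal mice and genotype on control diet. Its lowest values, 88.8 and 70.1, fell on arrays 06 and 07, and without arrays 05 to 08 these differences were 0.25, -0.016, 0.35 and 0.08.

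Rxra, at chr2:27676445-27763319, encodes the partner that Vdr needs on DNA. Its brighter probe set had means of 536 ± 82.2 in normal control, 641 ± 136 in normal low phosphate, 650 ± 68.5 in Hyp control and 617 ± 114 in Hyp low phosphate arrays (SD, n = 5 each). The lowest and highest single arrays read 438.1 and 801.2, and every pair of groups overlapped. The second read 332.0 to 492.7. On the brighter one the log2 differences were 0.23 for diet in normal mice (95% interval -0.03 to 0.50), -0.08 for diet in Hyp mice (-0.35 to 0.18), 0.27 for genotype on control diet (0.003 to 0.54) and -0.05 for genotype on low phosphate diet (-0.32 to 0.22), with adjusted p-values of 0.58 to 1.00. On the second all 4 lay between -0.06 and 0.11. Rxra was higher in Hyp than in normal mice on control diet in 5 of 5 pairs, by 1.04-fold to 1.37-fold, on the first probe set and in 2 of 5 on the second.

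Genes of the same pathway were counted from 6 lists. Among 13 listed target genes of the vitamin D receptor in kidney, 8 were measured and tested. Between diets in Hyp mice 2 of the 8 fell, S100g (calbindin-D9k) and Calb1 (calbindin-D28k), both cytosolic calcium binders of the distal tubule. In this comparison 0.15% of all probe sets passed, in either direction. S100g read 2467.1, 3672.0, 2194.3, 4676.7 and 5050.8 in Hyp mice on control diet and 635.6, 672.0, 591.4, 1123.5 and 1224.3 on low phosphate diet. Calb1 read 3609.6 to 4727.8 and 1720.2 to 1911.6 in the same groups. Neither pair of groups overlapped, as was true in this direction of 0.207% of all probe sets. The falls were 2.03 for S100g (adjusted p = 3.8e-06) and 1.18 for Calb1 (adjusted p = 1.3e-05). The interaction was -2.50 for S100g (adjusted p = 3.1e-05) and -1.13 for Calb1 (adjusted p = 0.0028), and it was negative for the 8 tested genes of the list (median -0.33, against -0.002 over all probe sets tested). The list does not hold Cyp24a1, itself a target of the receptor, whose interaction was 0.79 and did not pass. No single left-out array ended any of these calls on the 2 genes. All of them were lost among female arrays alone (adjusted p = 0.17 to 0.99), and those on Calb1 and on the S100g interaction also among 3-day arrays alone (adjusted p = 0.11 to 0.61). The Calb1 call on diet was lost too among 5-day arrays alone (adjusted p = 0.0501), and its interaction among male or 5-day arrays alone or without arrays 05 to 08 (adjusted p = 0.53, 0.50 and 0.069).

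Between genotypes on low phosphate diet 3 of the 8 targets were lower in Hyp mice, S100g (-2.44), Calb1 (-1.28) and Kl (-0.54, adjusted p = 0.037), the FGF23 co-receptor klotho. Of all probe sets 0.357% passed in this comparison, in either direction. The list's median was -0.45, against 0.02 over all probe sets. S100g and Calb1 kept the call without each array in turn and lost it among female arrays alone (adjusted p = 0.18 and 0.32), Calb1 also among 3-day arrays alone (adjusted p = 0.087). Kl kept it only without array 01, 03, 05, 07, 09, 10 or 19, with adjusted p of 0.017 to 0.13 over all 20 left-out arrays. Kl lost the call under 9 of 16 other settings (adjusted p up to 0.90). In normal mice 0 of the 8 targets passed for diet, where 0.184% of all probe sets did. Of the 8, 2 had an unadjusted p under 0.05, as did 745 of all 8695 probe sets. S100g stood at 0.47 (adjusted p = 0.35) and Calb1 at -0.05 (adjusted p = 0.95). Cyp24a1 had the opposite sign to S100g and Calb1 in both Hyp comparisons. Summed markers of the loop of Henle's thick limb and the distal tubule, a list that holds Calb1, were 30164.5 to 37025.1 in Hyp control and 30316.7 to 33733.8 in Hyp low phosphate arrays, and Calb1 was the 1 of its 6 markers that passed.

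In the list of 15 hormone signals that set the 2 enzymes, 12 genes were tested. Dusp6, a phosphatase induced by FGF receptor signalling, rose in Hyp mice on control diet (0.80, adjusted p = 0.025) and on low phosphate diet (0.77, adjusted p = 0.022), and Kl fell on low phosphate diet. Dusp6 read 897.9 to 1509.8 in Hyp and 549.1 to 797.0 in normal mice on control diet, with no overlap (0.518% of probe sets in this direction). On low phosphate diet its lowest Hyp value, 637.9, lay below the highest normal value, 705.9. The Dusp6 calls were lost without array 01, 03, 05, 07, 11, 13, 15 or 17 on control diet and without 02, 04, 12, 14, 16 or 18 on low phosphate diet (adjusted p up to 0.10 and 0.099), with values of 0.72 to 0.88 and 0.69 to 0.87. Over 16 other settings they were lost under 7 and 6 (adjusted p up to 0.90 in both). Of the 6 tested genes of vitamin D supply and uptake 0 passed in any main comparison, and 0 had an unadjusted p under 0.05. Megalin (Lrp2) differed by -0.12 to 0.13 and cubilin (Cubn) by -0.15 to 0.03 between groups, both being receptors that take up 25-hydroxyvitamin D with its carrier. Likewise 0 of 3 tested genes of electron supply to mitochondrial P450 enzymes, 0 of 10 receptor partners and coregulators, Rxrb among them, and 0 of 7 other nuclear receptors of the family passed in the 5 main comparisons, with at most 1 gene of a list at an unadjusted p under 0.05 in any of them. In the 5 main comparisons 0.046% to 0.357% of all probe sets passed, and 281 to 823 of 8695 had an unadjusted p under 0.05. Counts of 0 in lists this short are near these shares. Rxrg, the other retinoid X receptor, was too dim to be tested. Cyp2r1, Cyp27a1, Gc, Trpv5, Trpv6 and Casr were not analysed here.

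The genes most like each enzyme were ranked by the Pearson correlation of log2 intensity over 20 arrays, after subtracting the mean of each combination of sex and days, among 7791 single-gene probe sets. The 5 most like Cyp27b1 were S100g (r = 0.839), Calb1 (0.825), Parl (0.82), Atp6v1b2 (0.77) and Ankrd33b (0.76). The most opposed was Cyp24a1 (-0.75), with Psat1 level with it (-0.75). These values rest on 1 group, since over the 15 arrays outside Hyp low phosphate r was 0.365 for S100g, 0.189 for Calb1 and -0.338 for Cyp24a1. The 250 bases before S100g, the gene most like Cyp27b1, are chrX:162964600-162964849 on the minus strand.
S100g: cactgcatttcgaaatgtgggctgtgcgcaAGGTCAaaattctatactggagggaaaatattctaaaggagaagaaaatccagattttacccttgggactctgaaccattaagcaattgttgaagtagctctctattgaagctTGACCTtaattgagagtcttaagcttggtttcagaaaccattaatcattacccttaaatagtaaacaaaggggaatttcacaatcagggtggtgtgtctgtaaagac
They held 2 AGGTCA half-sites, 220 bases before the start on the plus strand and 107 on the minus strand, and 0 CCAAT or GC boxes.

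**Figure D5:**
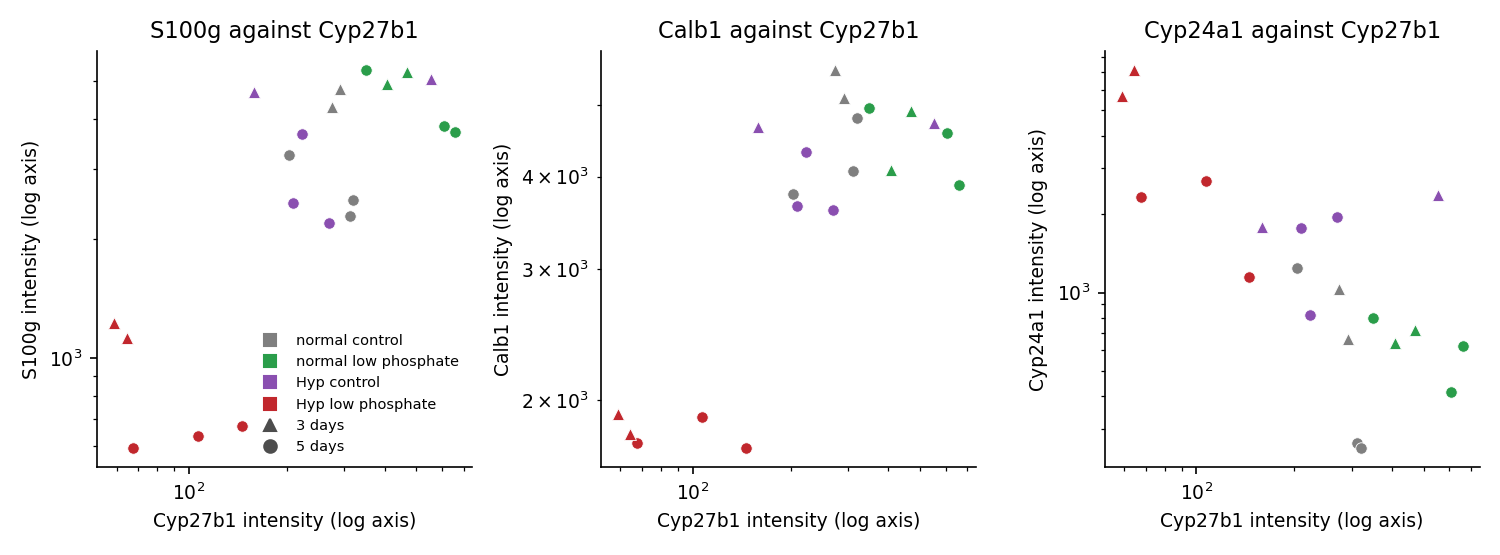
Intensity of S100g, Calb1 and Cyp24a1 (vertical, log axis) against Cyp27b1 (horizontal, log axis) on the 20 arrays, coloured by group, with triangles for 3 days and circles for 5 days. The 5 Hyp low phosphate arrays lie at the lowest Cyp27b1 (58.9 to 145.6) and stand apart on S100g and Calb1. On Cyp24a1 arrays 08 and 10 of this group (1148.2 and 2325.7) lie within the Hyp control range of 823.2 to 2365.8. The other 15 arrays show r of 0.365, 0.189 and -0.338.

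For Cyp24a1 the highest correlations were Ttc39b (0.82), Serinc3 (0.78), Rnase4 (0.77), Pla2g7 (0.77) and Atp1b1 (0.77). Ttc39b and Serinc3 had r of -0.049 and 0.125 when sex and days were not subtracted. The lowest were Slc26a1 (-0.89), a sulfate transporter of the proximal tubule, and Hagh (-0.87), and Slc26a1 had -0.92 over the 15 arrays outside Hyp low phosphate. Without the subtraction their r over 20 arrays was -0.60 and -0.66. Among the 4 genes themselves, Cyp24a1 and Vdr had r = 0.74 over 20 arrays and 0.64 over those 15, whereas Rxra correlated with none beyond 0.21. Closest to Vdr were Sec22b (0.76), Nqo1, Fgg, Ivns1abp and Vnn1, and closest to Rxra were Aldh2 (0.86), Flcn, Vegfb, Rab9 and Spin1. The arrays are 4 groups of 5, so each r describes these groups and was not tested.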

How the data were processed

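Kidney RNA of 20 pools was measured on 1 type of oligonucleotide array. The authors deposited a linear intensity for each probe set and array. The software and scaling behind these intensities are not given in the sources used here; trimmed means with 2% taken off each end show a common scale. The table held 12488 probe sets, of which 66 controls were set aside. The platform annotation names 1 gene for 10833 probe sets, several for 396 and none for 1193, and 10817 matched the RefSeq table (GRCm38.p6) by gene number.

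Intensities were raised by 37.7 (their 20th percentile) and converted to log2, so log2 differences of dim genes understate the fold. Probe sets under the 30th percentile of mean intensity (79.4) were left out, which left 8695. Groups were compared in limma (version 3.58.1, with R version 4.3.3) over the 20 arrays, with the 4 combinations of sex and days as further terms and 13 residual degrees of freedom. Two-sided p-values were adjusted by Benjamini-Hochberg over all 8695 probe sets, with a threshold of 0.05. Days were compared in a model of the 8 cells of group and days with sex and sex by days (10 residual degrees of freedom). Pairs and quartets match arrays for sex and days (01 to 04, 05 to 08, 11 to 14, 15 to 18, and 09, 10, 19 and 20). In the last quartet the Hyp arrays are 09 and 10 and the normal arrays 19 and 20. Genotype and array set cannot be told apart there. Ratios were compared by exact permutation tests, adjusted over the 4 comparisons of groups.

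All probe sets of the 4 genes are described. From the lists, genes past the threshold and a fixed few are named, each by its brightest probe set, and for likeness the 5 highest and up to 3 lowest correlations. The 4 genes, the lists and the tests were chosen with earlier results of these data known. Alternatives covered the offset, the filter, normalization, moderation, array weights, the terms for sex, days and array set, subsets of arrays and each array left out; the random block for the array set and the repeats for days and for S100g, Calb1, Kl and Dusp6 were added after seeing the data. Where leaving out an array left 1 in an arm, that array was assumed to vary like the others. The fits were tested on simulated data. The number of arrays limits the precision.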

Additional observations from a re-analysis of the deposited data

Results flagged for a closer look

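Cyp27b1 on Hyp control array 17, a female pool at 3 days, read 553.5, against 158.7 to 270.7 on the other 4 arrays of the group. The gap set it apart by Dixon's test on linear intensity, at 0.716 of the range against a critical value of 0.71. On the log2 scale of the limma tests it read 9.21 against 7.62 to 8.27, and Dixon's test was not run there. Array 17 was the 1 array set apart among 32 groups of 5 examined, where chance alone sets apart about 1 group in 20. Without it the diet difference in Hyp mice was -0.99 (adjusted p = 0.083) and the interaction -1.72 (adjusted p = 0.014). The diet effect on Cyp27b1 differed between genotypes by -2.01 on the log2 scale, by limma's interaction test (adjusted p = 0.043).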

How the results depend on the processing

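The genotype difference of Cyp27b1 on low phosphate diet kept its direction in all 36 repeats and that of Cyp24a1 likewise; of the calls on the 4 genes and the ratio in the main comparisons, these and that on the log2 ratio for the same groups are the ones that no single left-out array ended. S100g, Calb1, Kl and Dusp6 kept their directions throughout. Their calls were lost under 1 or 2 of the 15 or 16 settings for S100g, 2 to 5 for Calb1, 9 for Kl and 6 or 7 for Dusp6. Below are the values of the 4 genes and the ratio that lost or gained a call (with adjusted p) or changed sign. The cause of each change was not tested, beyond the fewer arrays of a subset. Among 3-day arrays, diet in normal mice gave -0.28 for Cyp24a1 and 0.78 for Vdr (second probe set) and diet in Hyp mice gave -1.78 for Cyp27b1 (adjusted p = 0.51), 0.032 for Rxra and -0.083 for Rxra (second probe set). There, genotype on control diet gave 0.086 for Cyp27b1 and 0.62 for Vdr (second probe set) and genotype on low phosphate diet gave -2.26 for Cyp27b1 (adjusted p = 0.29). There, genotype by diet interaction gave -2.35 for Cyp27b1 (adjusted p = 0.84) and -0.60 for Vdr (second probe set). Without arrays 05 to 08, diet in normal mice gave -0.01 for Cyp24a1 and 0.25 for Vdr (second probe set) and diet in Hyp mice gave -1.47 for Cyp27b1 (adjusted p = 0.13), -0.016 for Vdr (second probe set), -0.013 for Rxra (second probe set) and 2.49 for the log2 ratio (adjusted p = 0.057). There, genotype on control diet gave 0.007 for Cyp27b1 and 0.35 for Vdr (second probe set) and genotype by diet interaction gave -2.17 for Cyp27b1 (adjusted p = 0.16) and -0.26 for Vdr (second probe set). There, diet by days in Hyp mice gave -0.39 for Vdr (second probe set) and genotype on low phosphate diet gave 4.63 for the log2 ratio (adjusted p = 0.057). With array weights, diet in normal mice gave 0.30 for Vdr (second probe set) and diet in Hyp mice gave -0.019 for Rxra (second probe set). There, genotype on control diet gave 1.56 for Cyp24a1 (adjusted p = 0.010) and 0.30 for Vdr (second probe set) and genotype by diet interaction gave -0.17 for Vdr (second probe set). Among male arrays, diet in normal mice gave 0.051 for Vdr (second probe set) and diet in Hyp mice gave -1.09 for Cyp27b1 (adjusted p = 0.73) and 0.025 for Rxra. There, genotype on control diet gave 0.18 for Vdr (second probe set) and genotype on low phosphate diet gave 2.26 for Cyp24a1 (adjusted p = 0.26) and 0.005 for Rxra (second probe set). There, genotype by diet interaction gave -1.88 for Cyp27b1 (adjusted p = 0.53) and -0.032 for Vdr (second probe set). Without arrays 09, 10, 19 and 20, diet in normal mice gave 0.073 for Vdr (second probe set) and diet in Hyp mice gave -1.21 for Cyp27b1 (adjusted p = 0.28) and 2.28 for the log2 ratio (adjusted p = 0.11). There, genotype by diet interaction gave -1.95 for Cyp27b1 (adjusted p = 0.44) and genotype by days on low phosphate diet gave -0.056 for Rxra. There, genotype on low phosphate diet gave 4.59 for the log2 ratio (adjusted p = 0.11). With an offset of 100, diet in Hyp mice gave -0.96 for Cyp27b1 (adjusted p = 0.059) and 1.85 for the log2 ratio (adjusted p = 0.053). Without the intensity filter, diet in Hyp mice gave -1.28 for Cyp27b1 (adjusted p = 0.070) and genotype by diet interaction gave -2.01 for Cyp27b1 (adjusted p = 0.070). Without terms for sex and days, diet in Hyp mice gave -1.28 for Cyp27b1 (adjusted p = 0.065) and genotype on low phosphate diet gave 2.25 for Cyp24a1 (adjusted p = 0.083). Within the 2 groups alone, diet in Hyp mice gave -1.28 for Cyp27b1 (adjusted p = 0.57). Among female arrays, diet in Hyp mice gave -1.56 for Cyp27b1 (adjusted p = 0.88) and genotype on control diet gave 0.20 for Cyp27b1 and -0.16 for Rxra (second probe set). There, genotype on low phosphate diet gave -2.01 for Cyp27b1 (adjusted p = 0.90) and 2.23 for Cyp24a1 (adjusted p = 0.37) and genotype by diet interaction gave -2.21 for Cyp27b1 (adjusted p = 0.99), -0.14 for Vdr and 0.011 for Rxra (second probe set). Among 5-day arrays, diet in Hyp mice gave -0.94 for Cyp27b1 (adjusted p = 0.89) and genotype on control diet gave -0.12 for Rxra (second probe set). There, genotype on low phosphate diet gave 1.64 for Cyp24a1 (adjusted p = 0.41) and genotype by diet interaction gave -1.79 for Cyp27b1 (adjusted p = 0.72), -0.14 for Vdr and 0.086 for Rxra (second probe set). With trend and robust moderation, genotype on control diet gave 1.47 for Cyp24a1 (adjusted p = 0.044). With array sets as blocks, genotype on control diet gave 1.66 for Cyp24a1 (adjusted p = 0.035). After quantile normalization, genotype on control diet gave -0.025 for Rxra (second probe set) and 1.61 for the log2 ratio (adjusted p = 0.042). With an offset of 1, genotype by diet interaction gave -2.42 for Cyp27b1 (adjusted p = 0.055). With array sets as a random block, days averaged over groups gave -0.95 for Cyp24a1 (adjusted p = 0.082). With splits within sex and days, diet in Hyp mice gave 2.19 for the log2 ratio (adjusted p = 0.056) and genotype on low phosphate diet gave 4.35 for the log2 ratio (adjusted p = 0.056).

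With single arrays left out, Cyp24a1 ranged -0.16 to 0.41 for diet in normal mice, 1.18 to 1.76 for genotype on control diet and -0.22 to 0.89 for genotype by days on control diet. Likewise, Vdr (second probe set) ranged -0.30 to 0.20 for diet in normal mice, -0.27 to 0.23 for genotype on control diet and -0.30 to 0.56 for diet by days in Hyp mice. Likewise, Cyp27b1 ranged -1.41 to -0.99 for diet in Hyp mice, -0.38 to 0.05 for genotype on control diet, -2.15 to -1.72 for genotype by diet interaction and -0.082 to 0.63 for diet by days in normal mice. Likewise, Cyp27b1 ranged -1.11 to 0.54 for genotype by days on control diet, -0.087 to 0.63 for genotype by days on low phosphate diet and -0.27 to 1.38 for genotype by diet by days. Likewise, Rxra (second probe set) ranged -0.012 to 0.11 for diet in Hyp mice, -0.066 to 0.066 for genotype on control diet, -0.12 to 0.009 for genotype by diet interaction and -0.31 to 0.03 for diet by days in normal mice. Likewise, Rxra (second probe set) ranged -0.12 to 0.24 for genotype by days on low phosphate diet. Likewise, Rxra ranged -0.15 to 0.039 for genotype on low phosphate diet and -0.15 to 0.25 for genotype by days on low phosphate diet. Likewise, Vdr ranged -0.088 to 0.25 for genotype by diet interaction, -0.12 to 0.52 for diet by days in normal mice and -0.22 to 0.43 for genotype by days on control diet. Likewise, the log2 ratio ranged 1.82 to 2.69 for diet in Hyp mice and 1.24 to 1.92 for genotype on control diet. Genes most like a gene were also ranked without subtracting the means of sex and days, which moved Slc26a1 from rank 1 to 23 among the lowest for Cyp24a1, Parl from rank 3 to 97 for Cyp27b1 and Ttc39b from rank 1 to 4573 for Cyp24a1. No background signal comes with the intensities, so how far dim probe sets stand above background was not analysed here.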
